A study of Mus musculus with 18 samples.

Results

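The genes described here are 10 transcripts of the feedback arm of the ERK pathway: the MAP kinase phosphatases Dusp1, Dusp2, Dusp4, Dusp5, Dusp6 and Dusp7, the inhibitors Spry2, Spred1 and Spred2, and the transcription factor Ets2. They were picked out by gene symbol, as a set put together with earlier results of these data known, so their counts are a description. All 10 were found among the 18204 genes of the table, and all 10 were among the 16383 genes that passed the filter on low values. RNA sequencing was done in J774.1 cells, a mouse macrophage line, that were either wildtype or Ctbp1/2dKO (dKO), a double knockout of the C-terminal binding proteins CTBP1 and CTBP2. CTBPs are transcriptional co-regulators with a dehydrogenase fold that binds NADH. Cells of each genotype received vehicle (PBS/DMSO per the labels), 1.5 mM MTOB or 0.25 mM 4-Cl-HIPP for 4 h, which gave 6 groups of 3 samples and 18 samples in all. One vehicle group per genotype served both inhibitors. MTOB was dissolved in PBS and 4-Cl-HIPP in DMSO, and a passage of the study names DMSO alone as vehicle. Whether MTOB samples also received DMSO, or 4-Cl-HIPP samples PBS, is not given in the sources used here. Effects of an inhibitor and of a difference in solvent therefore cannot be told apart. MTOB (4-methylthio-2-oxobutanoate) is a substrate analogue of the CTBP dehydrogenase domain, and 4-Cl-HIPP is a substituted phenylpropanoic acid with a hydroxyimino group that was developed from it as a lead. The dKO cells were made with Cas9 and grown out from single cells, and the number of clones sequenced is not given in the sources used here, so genotype and clone cannot be told apart. The comparisons ask how the 2 inhibitors act on these transcripts, and whether they do so when CTBPs are lost.

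ERK is switched on by a relay from growth factor receptors through RAS, RAF and MEK. Active ERK induces its own brakes. The dual specificity phosphatases (DUSPs) remove phosphate from ERK, p38 or JNK, with DUSP1, DUSP2, DUSP4 and DUSP5 in the nucleus and DUSP6 and DUSP7 in the cytoplasm. Sprouty and SPRED proteins act further upstream, where they restrain activation of RAS and RAF. ETS2 is a transcription factor that ERK phosphorylates, and in macrophages it is known as a target of CSF1 receptor signalling. The readout here is the transcript level of these genes, and neither ERK activity nor protein was measured.

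Ctbp1 lay between 170.1 and 238 TPM (transcript abundance per length, scaled to the library total) in the 9 wildtype samples and between 19.7 and 31.5 TPM in the 9 dKO samples. Ctbp2 lay between 87.8 and 96.9 TPM in wildtype and between 68.5 and 81.9 TPM in dKO. The study describes frameshift and stop mutations in both genes and loss of both proteins by western blot, which a transcript level does not measure. All 7 macrophage markers with values were detected in both genotypes, but 3 of them separated the genotypes. Adgre1 was 24.6 to 107 TPM in wildtype and 6.70 to 13.7 TPM in dKO, Cd14 was 370.1 to 857 against 91.6 to 329 TPM, and Itgam was 11.3 to 21.0 against 34.6 to 65.3 TPM. Their part in the genotype differences below was not tested. Summed markers of T cells, B cells, neutrophils, fibroblasts and endothelium did not exceed 2.07 TPM in any sample.

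Promoter windows from RefSeq on mouse build GRCm38.p6, 250 bases before to 50 bases after the start site, were found for 9 of the 10 genes, all but Dusp4. The windows of Ets2, Dusp2 and Dusp5 are shown because these genes rose with MTOB in both genotypes, with capitals marking the motif matches.
Ets2 (chr16:95702157-95702456, plus strand): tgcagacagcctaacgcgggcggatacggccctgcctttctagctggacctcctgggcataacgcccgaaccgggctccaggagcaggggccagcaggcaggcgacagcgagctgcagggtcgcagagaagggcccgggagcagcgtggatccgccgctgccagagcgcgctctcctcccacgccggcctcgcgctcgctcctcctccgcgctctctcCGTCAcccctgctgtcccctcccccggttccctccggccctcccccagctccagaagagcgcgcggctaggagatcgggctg
Dusp2 (chr2:127335909-127336208, plus strand): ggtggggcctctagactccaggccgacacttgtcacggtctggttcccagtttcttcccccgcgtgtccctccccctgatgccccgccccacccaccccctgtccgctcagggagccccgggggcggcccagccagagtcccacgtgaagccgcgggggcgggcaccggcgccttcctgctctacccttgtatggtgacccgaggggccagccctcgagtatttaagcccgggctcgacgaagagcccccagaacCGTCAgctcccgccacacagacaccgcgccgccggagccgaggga
Dusp5 (chr19:53528895-53529194, plus strand): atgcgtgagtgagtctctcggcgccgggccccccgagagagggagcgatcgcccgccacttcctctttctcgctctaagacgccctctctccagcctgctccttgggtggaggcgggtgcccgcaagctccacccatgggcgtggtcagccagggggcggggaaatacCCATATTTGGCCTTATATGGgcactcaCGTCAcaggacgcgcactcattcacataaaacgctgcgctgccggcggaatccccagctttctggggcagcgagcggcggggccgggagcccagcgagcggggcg
Each of these windows held the core of the cAMP response element (CRE), TGACG, here on the opposite strand. It lay 32 bases upstream of the start in Ets2, 55 bases upstream in Dusp5 and 5 bases downstream in Dusp2. The core is common, being present in 20.8% of 32851 windows of the same length. The longer capital run in Dusp5 is a pair of CArG boxes, the element bound by serum response factor, which began 82 and 72 bases upstream and which 1.63% of windows held. Elsewhere among the 9 windows, Dusp1 held the full CRE, TGACGTCA, 143 bases upstream (1.79% of windows) and 3 copies of the core, 2 of which lie within the full CRE. Spred2 held the core 51 bases upstream, and Spry2 held the ETS core CCGGAA 33 bases downstream (14.9% of windows). The AP-1 heptamer TGACTCA, present in 5.2% of windows, was in none of the 9. Both strands were searched, and a match in these letters is a description of the window.

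Levels differed widely among the 10 genes. On the TPM scale, which is per transcript length, Spred1 had the highest mean over 18 samples, 124.7 TPM, above 92.2% of tested genes. Ets2 followed with 43.4 TPM, Spred2 with 32.5, Dusp2 with 17.7 and Dusp4 with 14.3 TPM. Spry2, Dusp7, Dusp6 and Dusp1 lay between 9.60 and 4.52 TPM. Dusp5 was lowest with 1.42 TPM, above 30.8% of tested genes, and a mean normalized count of 13.6, a low level for the fits below.

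**Figure D1:**
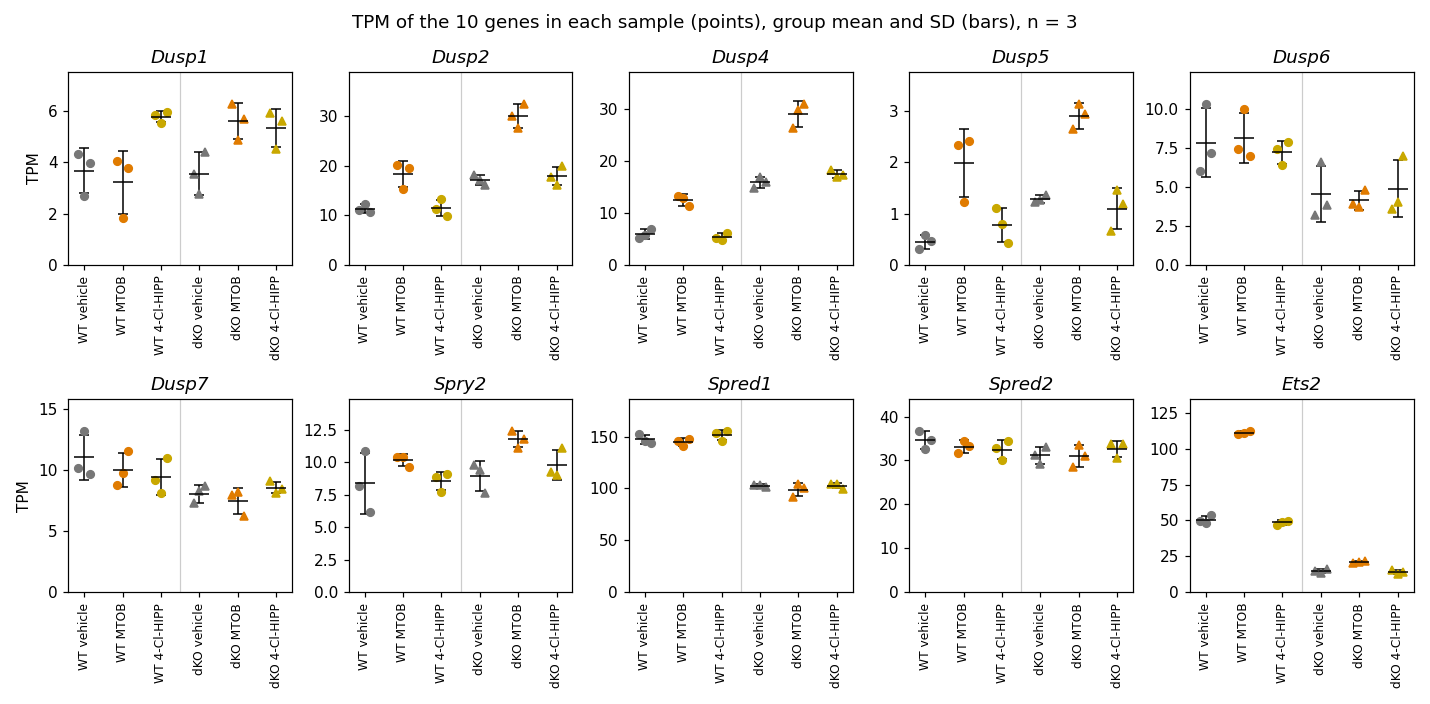
TPM (vertical axis, linear from 0, own scale per gene) of the 10 genes in each of the 18 samples by genotype and treatment; points are samples, bars the mean and SD of 3. Ets2 in wildtype MTOB samples sits at 110.2 to 112 TPM against 48.5 to 53.8 TPM under vehicle, and Spred1 in dKO lies at 92.2 to 104 TPM, below every wildtype sample.

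MTOB raised Ets2 and 3 of the 6 phosphatases, Dusp2, Dusp4 and Dusp5, in wildtype cells and in dKO cells. In wildtype, 4 of the 10 genes passed the test (limma on log2(TPM + 1), adjusted p below 0.05 with Benjamini-Hochberg over all genes), all of them higher, beside 7.26% of all genes passing and 3.8% passing as higher. All 4 also exceeded a fold change of 1.5, beside 2.01% of all genes (1.56% as higher). In dKO, 4 of the 10 passed as higher beside 6.58% of all genes (3.04% as higher), and 3 exceeded 1.5-fold beside 1.63% (1.15% as higher). The median log2 fold change of the 10 genes was 0.17 in wildtype and 0.43 in dKO, where that of all genes was -0.01 in both. Dusp1, Dusp6, Dusp7, Spry2, Spred1 and Spred2 did not pass in either genotype, although Dusp1 in dKO had an adjusted p = 0.0456 with a replicate block in the fit. In bulk RNA, a change in every cell and a change in the share of cells that express a gene cannot be told apart.

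Ets2, on chr16:95502847-95522095 of GRCm39 (plus strand), gave the clearest response. In wildtype vehicle samples it was at 49.6, 48.5 and 53.8 TPM, and in wildtype MTOB samples at 110.2, 111 and 112 TPM. The groups were far apart and the MTOB samples lay close together. The mean rose from 50.6 ± 2.79 to 111 ± 1.01 TPM (SD, n = 3), a ratio of 2.19 and a log2 difference of 1.12 (SE 0.07, adjusted p = 9.93e-08). In dKO, vehicle samples were at 14.9, 13.2 and 16.1 TPM and MTOB samples at 20.4, 21.1 and 21.9 TPM. These groups did not overlap either, with means of 14.8 ± 1.46 and 21.1 ± 0.764 TPM, a ratio of 1.43 and a log2 difference of 0.49 (SE 0.07, adjusted p = 0.000653). That change passed the test but stayed under 1.5-fold, and with only the groups compared in the fit its adjusted p was 0.0546.

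Dusp4, a nuclear phosphatase of ERK, p38 and JNK, lies on chr8:35274442-35287048 (plus strand). It was at 5.18, 5.68 and 6.89 TPM in wildtype vehicle samples and at 13.2, 12.9 and 11.2 TPM in wildtype MTOB samples. The mean rose from 5.92 ± 0.877 to 12.5 ± 1.08 TPM (log2 fold change 0.96, SE 0.10, adjusted p = 2.3e-05). In dKO it was at 14.7, 16.8 and 15.9 TPM under vehicle and at 26.2, 29.8 and 30.9 TPM under MTOB. Every dKO vehicle sample was thus above every wildtype MTOB sample, and the dKO mean rose from 15.8 ± 1.09 to 28.9 ± 2.45 TPM (log2 fold change 0.83, SE 0.10, adjusted p = 0.000121).

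Dusp2, a nuclear phosphatase known from activated leukocytes, lies on chr2:127177957-127180296 (plus strand). Wildtype vehicle samples were at 11.1, 12.3 and 10.7 TPM, and wildtype MTOB samples at 20.1, 15.3 and 19.6 TPM. In dKO, vehicle samples were at 18.1, 17.0 and 16.1 TPM and MTOB samples at 30.1, 27.6 and 32.4 TPM. MTOB samples were above vehicle samples within each genotype, and wildtype MTOB overlapped dKO vehicle. The log2 fold change was 0.64 in wildtype (SE 0.12, adjusted p = 0.00409) and 0.78 in dKO (SE 0.12, adjusted p = 0.00105). Exons of 2 antisense transcripts overlap 64 and 615 bases of Dusp2 in the GRCm39 annotation, and the library kit did not keep strand, so their reads cannot be told apart from those of Dusp2.

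Dusp5, a nuclear phosphatase selective for ERK, lies on chr19:53517532-53530862 (plus strand). It was barely detected in wildtype vehicle samples, at 0.314, 0.575 and 0.461 TPM, and reached 2.34, 1.22 and 2.42 TPM with MTOB. In dKO it was at 1.23, 1.26 and 1.37 TPM under vehicle and 2.64, 3.14 and 2.94 TPM under MTOB. Again no vehicle sample reached the MTOB samples of its genotype. The ratio of mean TPM was 4.43 in wildtype and 2.26 in dKO, while the log2 fold change of TPM + 1, which understates changes of low genes, was 1.02 (SE 0.20, adjusted p = 0.00395) and 0.77 (SE 0.20, adjusted p = 0.0272). The dKO result passed in 1 of the 6 fits that left out a sample of this comparison, with adjusted p from 0.0495 (without dKO MTOB replicate 1) to 0.0795. With a pseudocount of 0.1 the dKO result did not pass either (log2 fold change 1.11, SE 0.37, adjusted p = 0.091). An antisense transcript shares 555 exonic bases with Dusp5.

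Dusp1, the classic immediate early phosphatase of p38 and JNK, did not follow the same course. In wildtype it was at 4.33, 2.67 and 3.98 TPM under vehicle and at 4.06, 1.81 and 3.78 TPM under MTOB, so these groups overlapped. In dKO it was at 3.53, 2.75 and 4.40 TPM under vehicle and at 6.26, 4.87 and 5.67 TPM under MTOB. The dKO groups did not overlap, and the log2 fold change of 0.55 (SE 0.21) had an unadjusted p = 0.0219 and an adjusted p = 0.165 in limma. Spry2 gave a smaller value of the same kind in dKO, with 7.63 to 9.81 TPM under vehicle, 11.1 to 12.4 TPM under MTOB and a log2 difference of 0.37 (SE 0.15, unadjusted p = 0.0276, adjusted p = 0.188). Its wildtype MTOB samples, at 9.64 to 10.4 TPM, lay within the vehicle range of 6.15 to 10.8 TPM. Dusp1 shares 38 exonic bases with the antisense gene Ergic1, and Spry2 shares 564 with an antisense transcript.

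**Figure D2:**
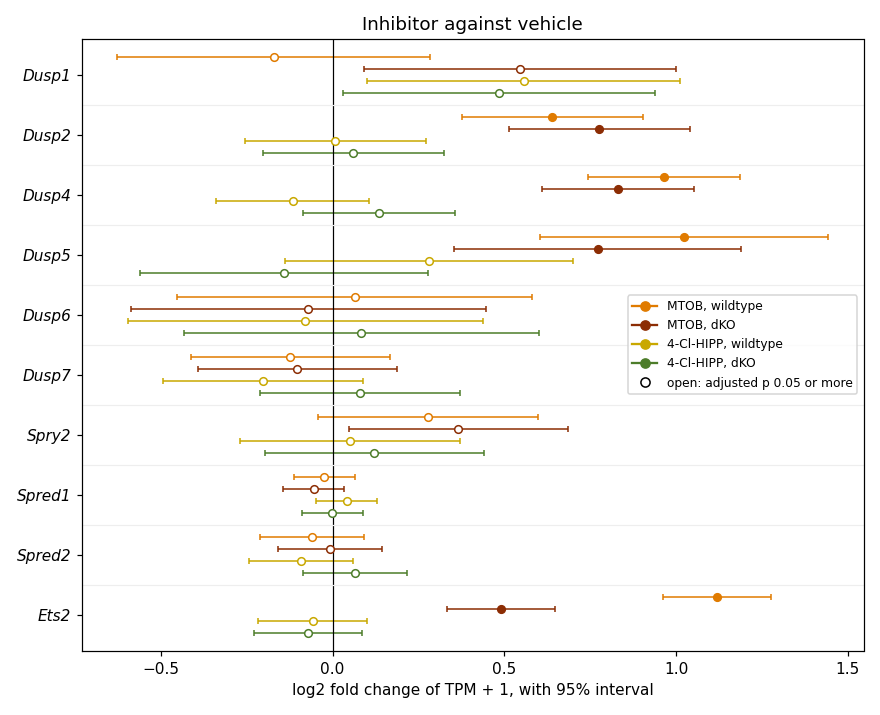
Log2 fold change of TPM + 1 against vehicle (horizontal axis) with its 95% interval for each gene, inhibitor and genotype; filled points passed at adjusted p below 0.05. The filled points are those of MTOB for Dusp2, Dusp4, Dusp5 and Ets2 in both genotypes, and no 4-Cl-HIPP point is filled.

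With 4-Cl-HIPP, none of the 10 genes passed in wildtype, beside 0.366% of all genes, and none passed in dKO, beside 0.501%. Beside these counts of 0 in limma, 1 of the 10 genes had an unadjusted p below 0.05 in each genotype, Dusp1 both times, as did 1341 (wildtype) and 1388 (dKO) of the 16383 genes tested. Dusp1 was at 5.82, 5.52 and 5.95 TPM in wildtype and at 5.91, 4.50 and 5.59 TPM in dKO with 4-Cl-HIPP, above all vehicle samples of the same genotype. The log2 fold change was 0.56 in wildtype (SE 0.21, unadjusted p = 0.0198, adjusted p = 0.48) and 0.48 in dKO (SE 0.21, unadjusted p = 0.0382, adjusted p = 0.54). Among the genes that rose with MTOB, Ets2 averaged 48.6 ± 1.57 TPM in wildtype and 14.0 ± 1.57 TPM in dKO with 4-Cl-HIPP, beside 50.6 and 14.8 TPM under vehicle. Dusp4 averaged 5.37 ± 0.664 and 17.5 ± 0.736 TPM and Dusp2 11.5 ± 1.69 and 17.9 ± 1.88 TPM in the same groups. The inhibitors were given at different doses, 1.5 mM and 0.25 mM, so their values stand side by side without a test between them, and both are set against the same 3 vehicle samples of each genotype.

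The dKO cells differed from wildtype in both directions among these genes. Under vehicle, 5 of the 10 genes passed, with Dusp2, Dusp4 and Dusp5 higher and Ets2 and Spred1 lower in dKO, beside 10.7% of all genes passing (7.01% higher and 3.72% lower). Of these, Dusp4, Dusp5 and Ets2 exceeded 1.5-fold on the TPM + 1 scale of the test, beside 4.83% of all genes. Dusp2 stayed under it on that scale, with a ratio of mean TPM of 1.505. Under MTOB 5 passed, with Dusp6 in place of Dusp5, beside 11.2% of all genes (6.98% higher and 4.18% lower), and 4 exceeded 1.5-fold beside 4.95%. Under 4-Cl-HIPP 4 passed beside 10.2% (6.6% higher and 3.63% lower), and 3 exceeded 1.5-fold beside 4.72%. Dusp2, Dusp4, Spred1 and Ets2 passed in the same direction under all 3 treatments, except that Dusp2 under 4-Cl-HIPP had an adjusted p = 0.0608 with only the groups compared in the fit. The medians of the 10 genes, between -0.09 and 0.05, were near the 0.00 to 0.01 of all genes, with members on both sides.

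**Figure D3:**
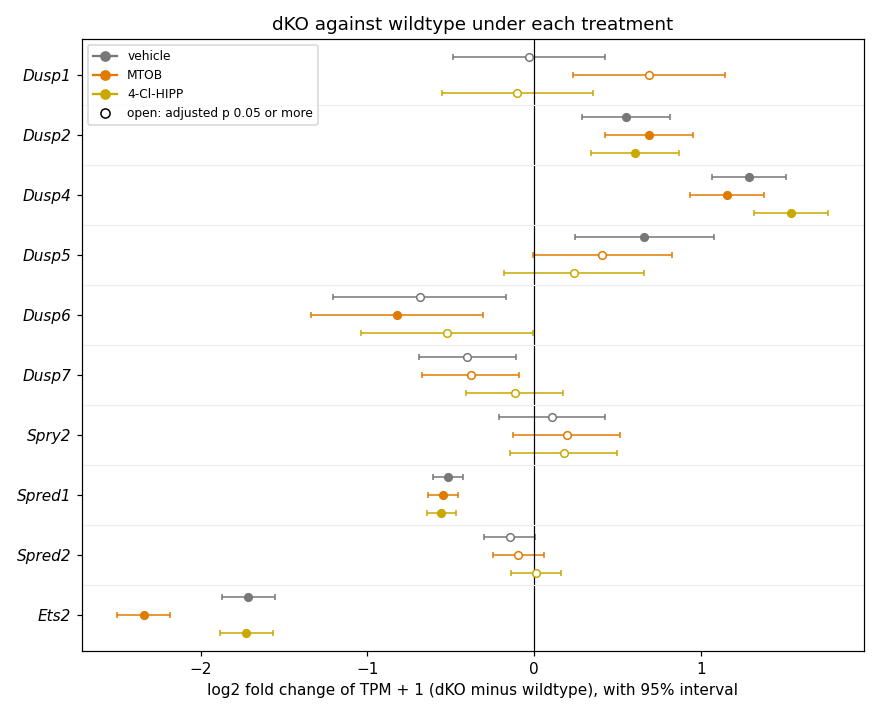
Log2 fold change of TPM + 1 in dKO against wildtype (horizontal axis, positive when higher in dKO) with its 95% interval, under each treatment; filled points passed at adjusted p below 0.05. Ets2 lies furthest to the left, from -2.34 under MTOB to -1.71 under vehicle, and Dusp4 furthest to the right, from 1.15 to 1.54.

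Ets2 was 3.43 times higher in wildtype than in dKO under vehicle and 5.26 times higher under MTOB, as ratios of mean TPM. The log2 fold change of dKO against wildtype was -1.71 under vehicle, -2.34 under MTOB and -1.73 under 4-Cl-HIPP (SE 0.07 each; adjusted p = 3.06e-10, 5.55e-12 and 2.44e-10). The order of its groups ran from wildtype MTOB through wildtype vehicle and wildtype 4-Cl-HIPP to dKO MTOB, dKO vehicle and dKO 4-Cl-HIPP. Sample ranges of vehicle and 4-Cl-HIPP overlapped within each genotype, and all other neighbours in that order were apart.

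Spred1, which lies on chr2:116951524-117018277 (plus strand) and restrains RAS at the membrane, separated the genotypes and not the treatments. Wildtype samples were at 153, 145 and 144 TPM under vehicle, at 145, 141 and 148 TPM under MTOB and at 153, 146 and 155 TPM under 4-Cl-HIPP. In dKO the values were 104, 103 and 101 TPM, then 92.2, 104 and 100.3 TPM, then 104, 104 and 99.7 TPM. No dKO sample reached a wildtype sample. The log2 fold change was -0.52 under vehicle, -0.55 under MTOB and -0.56 under 4-Cl-HIPP (SE 0.04 each; adjusted p = 4.62e-07, 2.19e-07 and 1.79e-07). Each passed but stayed under 1.5-fold. Its relative Spred2 did not separate them, with 30.1 to 36.7 TPM over the wildtype samples and 28.6 to 33.8 TPM over the dKO samples.

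Dusp4 was 2.67 times higher in dKO than in wildtype under vehicle, with log2 fold changes of 1.29 under vehicle, 1.15 under MTOB and 1.54 under 4-Cl-HIPP (SE 0.10 each; adjusted p = 4.69e-07, 1.42e-06 and 6.27e-08). Dusp2 was higher by 0.55, 0.69 and 0.60 on the log2 scale in the same order (SE 0.12 each; adjusted p = 0.0074, 0.00133 and 0.00403). Dusp5 was higher by 0.66 under vehicle (SE 0.20, adjusted p = 0.0423), and this call was lost in all 6 fits that left out a sample of that comparison (adjusted p 0.064 to 0.143).

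Of the cytoplasmic ERK phosphatases, Dusp6 passed as lower in dKO under MTOB alone, and Dusp7 passed under no treatment. Dusp6, the phosphatase whose transcript is widely used as a readout of ERK activity, was at 6.01, 10.3 and 7.18 TPM in wildtype vehicle samples and 3.22, 6.57 and 3.86 TPM in dKO vehicle samples, which overlap. Under MTOB it was at 7.45, 9.99 and 6.98 TPM in wildtype and at 3.89, 3.71 and 4.82 TPM in dKO, with no overlap. The log2 fold change was -0.69 under vehicle (SE 0.24, adjusted p = 0.0925), -0.82 under MTOB (SE 0.24, adjusted p = 0.0396) and -0.52 under 4-Cl-HIPP (SE 0.24, adjusted p = 0.229). The MTOB call was lost in all 6 fits that left out a sample of that comparison (adjusted p 0.0531 to 0.155), and 2 antisense transcripts share 94 and 685 exonic bases with Dusp6. Dusp7 averaged 11.0 ± 1.87 TPM in wildtype and 8.05 ± 0.716 TPM in dKO under vehicle and did not pass (log2 fold change -0.40, SE 0.14, adjusted p = 0.0794). Dusp1 under MTOB did not pass, at a log2 difference of 0.69 (SE 0.21, adjusted p = 0.0509), and had an adjusted p = 0.00759 with a replicate block.

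The test of whether the MTOB effect differed between genotypes singled out Ets2 among the 10 genes, beside 0.0916% of all genes (15 of 16383). Its log2 fold change with MTOB was larger in wildtype than in dKO by 0.63 (SE 0.10, adjusted p = 0.0318). For Dusp4 and Dusp5 the wildtype minus dKO difference was 0.13 (95% interval -0.18 to 0.45) and 0.25 (-0.34 to 0.84), and for Dusp2 it was -0.14 (-0.51 to 0.24). None of these 3 passed, and the intervals leave room for differences in either direction. Dusp1 had a difference of -0.72 (SE 0.30, unadjusted p = 0.0311, adjusted p = 0.69). The Ets2 call held in 3 of the 12 fits that left out a sample, with estimates from 0.57 to 0.70 and adjusted p from 0.021 to 0.107. For 4-Cl-HIPP, 0 of the 10 genes and 0% of all genes passed this test in limma, while 0 of the 10 and 734 of all genes had an unadjusted p below 0.05.

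**Figure D4:**
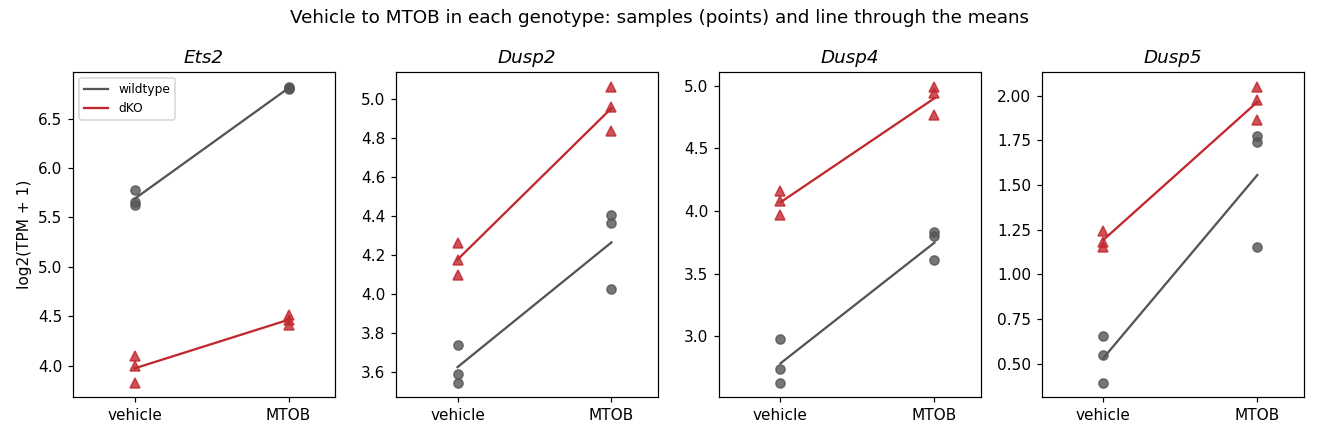
Log2(TPM + 1) (vertical axis, own scale per gene) of the 4 genes that rose with MTOB, under vehicle and MTOB in wildtype and dKO; points are samples and lines join the means of 3. The Ets2 line rises by 1.12 in wildtype and 0.49 in dKO, while Dusp2, Dusp4 and Dusp5 lie higher in dKO than in wildtype in both columns.

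Further transcripts of the pathway were counted by list. Of 20 ERK-responsive transcripts outside the 10 genes, 19 were tested, and 9 passed as higher and 1 as lower with MTOB in wildtype, beside 3.8% and 3.46% of all genes. In dKO 7 passed as higher and none as lower, beside 3.04% and 3.54%. For this list the median log2 change was 0.37 in wildtype and 0.41 in dKO, beside -0.01 for all genes. Fosl1, an AP-1 subunit, rose from 5.78 ± 1.19 to 20.4 ± 2.02 TPM in wildtype (log2 fold change 1.67, SE 0.19, adjusted p = 4.38e-05) and from 5.74 ± 1.31 to 29.8 ± 6.28 TPM in dKO (2.19, SE 0.19, adjusted p = 2.87e-06). Ier3, an immediate early gene linked to survival, rose from 8.15 ± 1.324 to 21.7 ± 2.80 TPM in wildtype (1.31, adjusted p = 0.000129) and from 3.21 ± 0.778 to 14.4 ± 2.00 TPM in dKO (1.88, adjusted p = 3.79e-06). Plaur, the urokinase receptor, rose by 0.98 and 0.80 on the log2 scale (adjusted p = 0.000374 and 0.00263). Trib1, a pseudokinase, rose by 0.67 in wildtype (adjusted p = 0.0026), and its log2 change was 0.29 in dKO (adjusted p = 0.202). The AP-1 subunit Junb rose by 0.44 in wildtype and 0.78 in dKO (adjusted p = 0.00351 and 2.35e-05), and Ier2 by 0.49 and 0.77 (adjusted p = 0.0141 and 0.000509). In the other direction, Bhlhe40 averaged 5.93 ± 1.46 TPM under vehicle and 3.28 ± 0.0794 TPM under MTOB in wildtype. In dKO it averaged 17.1 and 16.8 TPM. None of the list passed with 4-Cl-HIPP, beside 0.366% of all genes in wildtype and 0.501% in dKO. The test of a genotype difference in the MTOB effect was passed by none, beside 0.0916% of all genes.

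**Figure D5:**
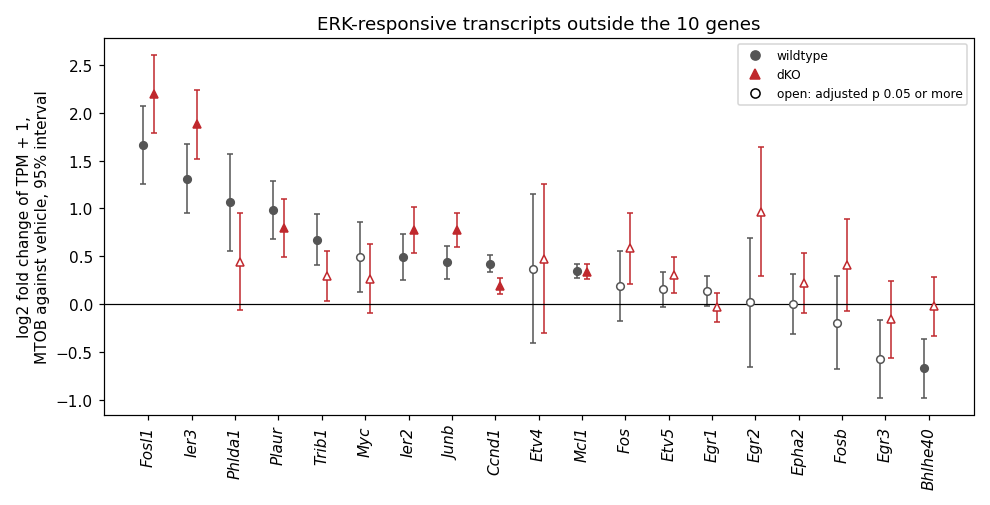
Log2 fold change of TPM + 1 with MTOB against vehicle (vertical axis) and its 95% interval for 19 ERK-responsive transcripts in wildtype (circles) and dKO (triangles); filled symbols passed at adjusted p below 0.05. Fosl1 and Ier3 are furthest up in both genotypes, at 1.67 and 1.31 in wildtype and 2.19 and 1.88 in dKO.

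The same list split by genotype under vehicle, where 5 passed as higher and 4 as lower in dKO, beside 7.01% and 3.72% of all genes. Epha2, an ephrin receptor, rose from 1.68 ± 0.415 TPM in wildtype to 11.4 ± 1.59 TPM in dKO (log2 fold change 2.22, adjusted p = 4.3e-08). Bhlhe40, a transcriptional repressor, was higher by 1.40 and Fos, the AP-1 subunit, by 0.99 (adjusted p = 6.11e-06 and 0.00101), whereas Ier3 was lower (log2 fold change -1.13, adjusted p = 0.000261). Under MTOB 3 passed as higher and 2 as lower (6.98% and 4.18% of all genes), led by Epha2 (2.44, adjusted p = 1.42e-08), Bhlhe40 (2.05, adjusted p = 9.67e-08), Fos (1.38, adjusted p = 4.4e-05) and the cyclin Ccnd1 (-0.60, adjusted p = 4.12e-08). Under 4-Cl-HIPP 6 passed as higher and 2 as lower (6.6% and 3.63% of all genes). Of these, Epha2 (2.46, adjusted p = 1.52e-08), Bhlhe40 (1.86, adjusted p = 2.81e-07) and Trib1 (0.69, adjusted p = 0.00129) were higher and Ier3 lower (-0.81, adjusted p = 0.0046).

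Of 26 tested genes of the RAS-RAF-MEK-ERK, JNK and p38 cascade, 1 passed as higher and 1 as lower with MTOB in wildtype, and 1 passed as higher in dKO, beside 7.26% and 6.58% of all genes. Between genotypes 2, 3 and 2 passed as higher and none as lower under vehicle, MTOB and 4-Cl-HIPP, beside 10.7%, 11.2% and 10.2% of all genes. These shares of the cascade are near those of all genes, and no cascade gene that passed exceeded 1.5-fold of TPM + 1 in any comparison. The ones that passed with MTOB were the p38 kinase kinase Map2k3, with log2 fold changes of 0.41 in wildtype and 0.39 in dKO (adjusted p = 0.0012 and 0.00201), and the adaptor Shc1, with -0.23 in wildtype (adjusted p = 0.00436). Among 14 tested phosphatases and inhibitors outside the 10 genes, 1 passed with MTOB in each genotype, as higher, a share near that of all genes. In wildtype it was Rasa1, a GTPase activating protein for RAS (log2 fold change 0.40, adjusted p = 0.0133). The one in dKO was Dusp14, which went from 6.52 ± 0.151 to 11.6 ± 1.38 TPM (log2 fold change 0.74, SE 0.21, adjusted p = 0.0488). Between genotypes, 3, 6 and 4 of the 14 passed under vehicle, MTOB and 4-Cl-HIPP, beside 10.7%, 11.2% and 10.2% of all genes. Of these, 2 were higher in dKO under each treatment, and 1, 4 and 2 were lower. Under vehicle Dusp14 was also higher in dKO than in wildtype, where it had 2.05 ± 0.950 TPM (1.35, SE 0.21, adjusted p = 0.000407). Rasa2, a relative of Rasa1, was higher in dKO by 1.09 (SE 0.10, adjusted p = 2.99e-06), at 30.4 ± 1.59 against 13.8 ± 0.376 TPM. Both were also higher in dKO under MTOB, by 1.66 for Dusp14 and 0.83 for Rasa2 (adjusted p = 5.58e-05 and 5.06e-05), and under 4-Cl-HIPP, by 1.88 and 1.07 (adjusted p = 1.54e-05 and 3.69e-06). Dusp16, a phosphatase of JNK and p38, was lower in dKO under MTOB (log2 fold change -0.62, adjusted p = 0.000122). Of 16 tested ETS family factors other than Ets2, none passed with MTOB in wildtype, and in dKO Spi1 passed as higher (log2 fold change 0.34, adjusted p = 0.00593) and Elk4 as lower (-0.37, adjusted p = 0.000603), both under 1.5-fold. Between genotypes, 2 of the 16 passed under each of vehicle, MTOB and 4-Cl-HIPP, beside 10.7%, 11.2% and 10.2% of all genes, a share near these. Lower in dKO were 1, 2 and 1 of them, and 1 under vehicle and 1 under MTOB also exceeded 1.5-fold. Etv2 was a low transcript, at 0.726 to 2.15 TPM in wildtype vehicle samples and 0.683 to 1.64 TPM in wildtype MTOB samples. It was listed at 0 in all 3 dKO vehicle samples and all 3 dKO MTOB samples. No gene of these 3 lists passed with 4-Cl-HIPP, beside 0.366% of all genes in wildtype and 0.501% in dKO.

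Pearson correlation of log2(TPM + 1) over the 18 samples described which genes moved alike, with shared libraries and 6 groups behind every point. Among the 10 genes, Dusp2 went with Dusp4 (r = 0.91) and with Dusp5 (r = 0.89). Ets2 went with Spred1 (r = 0.87), and Dusp4 ran opposite to Spred1 (r = -0.86). Spred1 separated the genotypes and not the treatments, and a gap between genotypes alone can give such r values. Of 11043 candidate genes, those most like Ets2 were Pla2g5 (r = 0.99), a secreted phospholipase, and Ryk (r = 0.98), a WNT receptor. Dusp4 was most like Pik3r5 and Akr1b8 (r = 0.98 each), and Dusp2 most like Esd (r = 0.97) and Zc3h12c (r = 0.96). Dusp5 came nearest to Esd and Kcnk13 (r = 0.91 each), and Spred1 to Nt5dc2 and Cbr1 (r = 0.98 each, with Spearman rank correlations of 0.84 and 0.83). For Spry2 they were Cbr3 (r = 0.87) and Blvrb (r = 0.83), for Dusp6 Map3k1 and Dynlt1a (r = 0.83 each), and for Dusp7 Rpn2 and Wdr35 (r = 0.79 each). Dusp1 was closest to Creb3l2 (r = 0.78) and Gm7729 (r = 0.73), and Spred2 to Zfp706 (r = 0.77) and Patl1 (r = 0.75).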

How the data were processed

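RNA of 18 J774.1 samples (6 groups of 3) was sequenced, and groups follow the genotype and the treatment that the labels give. The labels give polyA RNA and an unstranded mRNA kit, while the methods name rRNA depletion. The authors quantified transcripts with Salmon 1.9.0 on Gencode M28 with GC correction and summarised them per gene. They deposited a table of 18204 genes with scaled TPM per sample, summing to between 999766 and 999897, and, as a signal for each gene, its mean normalized count, which the authors obtained with DESeq2 1.44.0 (versions per the submitters' processing notes). Columns with the authors' own log2 fold changes and adjusted p-values for each inhibitor in each genotype were not used. All other value columns were mapped to samples. Raw counts were not analysed here, so the depth per sample is unknown and no count test was run.

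Here, log2(TPM + 1) of 16383 genes, those whose mean normalized count exceeded 0.222 (percentile 10 of the table), was fitted with 6 group means over all samples in limma 3.58.1 (R 4.3.3, with version 1.17.8 of the data.table package), with the variance allowed to vary with that count on the log2 scale, two-sided tests and Benjamini-Hochberg adjustment per contrast. Passing required an adjusted p below 0.05, and calls also a fold change of TPM + 1 above 1.5 (log2 0.585), except in tests of a genotype difference. The fit was tested on simulated data in which the changed genes all had mean normalized counts above those of Dusp5 and Dusp1. That test does not cover changes at such low counts. Replicates correlated at 0.9825 to 0.987. The study calls its replicates biological triplicates. Whether they were separate cultures is not given in the sources used here, so p-values measure only the spread between these samples. Deviations of samples with the same replicate number correlated at -0.13 to 0.09 over all genes, so the numbers were not taken as pairs. Dusp1, however, was lowest in replicate 2 of each of the 6 groups, and its SE went from 0.21 to 0.15 with a replicate block. The alternatives were pseudocounts of 0.1 and 5, other filters, no variance trend, median-of-ratios scaling, a replicate block, only the groups compared, and leaving out each sample.

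The 10 genes and the lists were chosen with earlier results of these data known. The lists came from general knowledge. Named are the 10 genes, at most 4 called genes with the smallest p per list and contrast, the 2 genes most like each of the 10, and Ctbp1 and Ctbp2. Genes behind counts of 5 or fewer that were under 1.5-fold, 3 cell type markers, and Bhlhe40 with MTOB were named after their values were seen. Positions and exon overlaps came from the Gencode GRCm39 annotation, a later release than that of the authors. Python 3.11.15 with matplotlib 3.10.9 drew the figures.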

Additional observations from a re-analysis of the deposited data

Results flagged for a closer look

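The response of Ets2 to MTOB differed between genotypes by a test of the difference itself. The log2 fold change was larger in wildtype than in dKO by 0.63 (SE 0.10, limma, adjusted p = 0.0318), with the 3 MTOB samples above the 3 vehicle samples in each genotype. Of the 12 fits that left out a sample, 3 kept the adjusted p below 0.05, namely those without wildtype vehicle replicate 3, dKO vehicle replicate 2 or dKO MTOB replicate 3, and the other 9 gave up to 0.107.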

How the results depend on the processing

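Outside the fits that left out a sample, 270 of 288 values kept their direction and their call (adjusted p and 1.5-fold together), 13 lost a call, 4 gained one and 1 reversed. The values counted were those of the 10 genes with an unadjusted p below 0.05 in limma for the contrast. Added to them were the genotype differences in the MTOB effect of genes that passed with MTOB. Values not called in the main fit counted as kept when they stayed uncalled in the same direction. Among values that kept their call, the adjusted p threshold alone was crossed by Ets2 with MTOB in dKO (0.0546 with only the groups compared), Dusp1 with MTOB in dKO (0.0456 with the block) and Dusp1 between genotypes under MTOB (0.0405 with a pseudocount of 5). Of 246 values with a sample left out, 211 were kept, 30 lost a call, 5 gained one and none reversed. The number of the 10 genes called for MTOB in wildtype went from 4 to 2 with a pseudocount of 5 and to 2 with only the groups compared, where Dusp2 and Dusp5 had adjusted p of 0.0662 and 0.0697. The Ets2 genotype difference in the MTOB effect, the 1 call of that test, went to 0 without the variance trend (adjusted p = 0.0945) and to 0 with only the groups compared (0.0511). With a sample left out it ranged from 0 to 1. Called genes in dKO against wildtype under MTOB ranged from 2 to 4 with a sample left out, 2 being without wildtype MTOB replicate 2. The Dusp4 genotype difference in the MTOB effect reversed from 0.13 to -0.0263 with a pseudocount of 5. Over all genes, a pseudocount of 5 lowered the calls for MTOB from 329 to 185 in wildtype and from 267 to 131 in dKO, those for 4-Cl-HIPP from 23 to 6 and from 25 to 13, and those between genotypes to 426 (vehicle), 420 (MTOB) and 425 (4-Cl-HIPP). With only the groups compared, calls were 135 for MTOB in dKO, 15 and 7 for 4-Cl-HIPP in wildtype and dKO, and 10 and 2 for the genotype differences of MTOB and 4-Cl-HIPP. The genotype difference of MTOB had 15 calls, 6 without the trend and as few as 7 without a sample (dKO vehicle replicate 3; 8 or 9 without replicate 1 of any of the 4 groups or dKO MTOB replicate 2). For 4-Cl-HIPP, calls were 9 in wildtype without 4-Cl-HIPP replicate 2 and 10 without vehicle replicate 3. In dKO they were 12 without 4-Cl-HIPP replicate 1 and 15 without vehicle replicate 1 or 2, and the genotype difference had up to 3 (without wildtype vehicle replicate 2). With the replicate block, as numbers only, the called genes among the 10 were 4 for MTOB in wildtype, 3 in dKO, 2, 5 and 3 between genotypes under vehicle, MTOB and 4-Cl-HIPP, and 1 for the MTOB difference. The block took away Dusp5 under vehicle (adjusted p = 0.0684), added Dusp1 under MTOB (0.00759) and lowered the MTOB differences over all genes from 15 to 8. Between 0 and 5 of 6 samples per contrast correlated best with their own number. Dusp2 stayed past adjusted p but fell under 1.5-fold for MTOB in wildtype without wildtype MTOB replicate 1 (log2 0.57), between genotypes under MTOB without wildtype MTOB replicate 2 (0.5687) and under 4-Cl-HIPP without wildtype or dKO 4-Cl-HIPP replicate 3 (0.5091 and 0.5302). Dusp1 between genotypes under MTOB passed without wildtype MTOB replicate 1 (adjusted p = 0.0321), and Dusp6 under vehicle without dKO vehicle replicate 2 (0.0235). The cause of these changes was not tested. The unknown depth limits low transcripts such as Dusp5.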
